A study of Homo sapiens with 20 samples.

Results

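The 6 Iroquois homeobox genes of the human genome lie in 2 clusters, IRX4, IRX2 and IRX1 on chromosome 5 and IRX3, IRX5 and IRX6 on chromosome 16. Their contacts were taken from a matrix of captured chromatin contacts. A contact was kept where bait and other end lay on the same chromosome and either interval overlapped the body of an IRX gene (GRCh38) widened by 1 kb on each side. This gave 78 contacts, 35 for the chromosome 5 cluster and 43 for the chromosome 16 cluster, of 182303 contacts within chromosomes and 766138 in all. The other TALE homeobox genes, named for an extended loop in the homeodomain and used here as a comparison family, had 697 contacts by the same rule.

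IRX proteins are TALE-class homeodomain transcription factors related to the Iroquois proteins of Drosophila, which help to place sense organs and to pattern the eye. In vertebrates the genes act in patterning of the neural tube, heart, limb and lung. They are largely silent in pluripotent cells, where their clusters are classic targets of Polycomb repressors. Genes of such Polycomb-covered clusters are known to contact each other over long distances in embryonic stem cells.

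The assay was Poised Enhancer Capture Hi-C, in which chromatin cut with DpnII is ligated and products with a captured fragment, the bait, at an end are enriched. The baits were designed around poised enhancers, regulatory elements that carry Polycomb marks before they are used. The groups were H9, definitive endoderm (DE), neuroectoderm (NE) and 7 stages of the naive-to-primed transition, with 2 libraries pooled per group. H9 is an established primed human embryonic stem cell line and was grown in mTeSR-E8. All other groups came from HNES1, a separate line of human embryonic stem cells held in the naive state, so that cell line and culture differ together between H9 and the rest. DE cells were made from day 14 HNES1 cells by an activin-based induction. NE cells were made from day 14 HNES1 cells by 10 days of induction, and CD56-positive, EpCAM-negative cells were sorted. Naive cells were kept with PD0325901, LIF, Gö6983 and XAV939. The transition was run in N2B27 with XAV939 and sampled at day 1, day 3, day 5, day 7, day 10 and day 14. No genetic change was given for any group. The matrix holds contact scores and no expression, so the labelled states could not be set against marker genes.

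Each contact carries 1 interaction score per condition. A larger value means stronger evidence for more ligation products than the distance and the fragments would give. The score does not give the size of that excess. Scores of 5 or more were taken as calls. Every listed contact reached 5 in at least 1 condition, so a listing is already selected and only the pattern over conditions can vary. Both libraries were pooled in each score, so no spread between replicates exists and no condition was tested against another. Exact 95% binomial intervals are given for shares. They cover counting error only and treat contacts as separate, although contacts of a cluster share baits. Read depth was unknown. Over all 28903 baits, 1.98% had no score in DE and 3.7% in NE, against 19.1% in H9, 23.3% at day 14 and 25.6% in naive cells.

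The promoters of IRX4 and IRX1 are shown because they lie in fragments whose contacts are described here, as a bait for IRX4 and as an other end for IRX1. Both are 300 bases from RefSeq (GRCh38.p14), 250 before and 50 after an annotated start, written 5′ to 3′ on the strand of the gene with every CG in capitals.
IRX4, chr5:1886896-1887195, minus strand: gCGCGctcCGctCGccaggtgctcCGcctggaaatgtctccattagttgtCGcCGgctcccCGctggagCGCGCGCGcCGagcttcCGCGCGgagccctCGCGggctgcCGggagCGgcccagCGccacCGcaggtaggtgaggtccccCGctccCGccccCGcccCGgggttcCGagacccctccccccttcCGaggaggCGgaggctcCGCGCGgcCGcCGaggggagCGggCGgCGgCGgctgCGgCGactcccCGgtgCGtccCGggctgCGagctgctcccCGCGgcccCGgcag
IRX1, chr5:3595582-3595881, plus strand: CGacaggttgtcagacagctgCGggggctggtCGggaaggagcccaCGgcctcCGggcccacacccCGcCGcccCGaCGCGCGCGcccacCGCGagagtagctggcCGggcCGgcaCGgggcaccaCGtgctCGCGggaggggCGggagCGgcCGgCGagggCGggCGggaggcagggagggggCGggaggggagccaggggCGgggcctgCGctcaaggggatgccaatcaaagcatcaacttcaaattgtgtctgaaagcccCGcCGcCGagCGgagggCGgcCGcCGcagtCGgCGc
Of 3 annotated IRX4 windows the most CG-dense is shown. It holds 47 CG pairs, a number reached by 2.41% of 34943 promoter windows of the same length. The other IRX4 windows hold 44 (in the same bait) and 36 (in no listed fragment). The IRX1 window holds 38, reached by 9.89%, and the median over all windows is 14. CG-dense promoters of silent developmental genes are the usual place of Polycomb marks in embryonic stem cells. Neither window holds GATC, the DpnII site, which 41.8% of all windows hold, so each lies within a single fragment. Both motifs read the same on either strand, and a GATC can share its first or last base with a CG. Of the 6 genes, 3 were matched to a promoter sequence (IRX4, IRX2 and IRX1). The IRX2 window (34 CG pairs, chr5:2751628-2751927, minus strand) lay in no listed fragment.

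On the gene bodies widened by 1 kb, contacts of the chromosome 5 cluster were called mostly in H9 and in the differentiated cells, and those of the chromosome 16 cluster in every condition. The chromosome 5 pattern was much weaker with a margin of 10 kb: of 89 contacts, 11 were called in H9, 11 in DE and 13 in NE, against 9 at day 14 and 5 in naive cells, and all these intervals overlapped. The counts that follow are for the 1 kb margin. The chromosome 5 cluster had 8 called contacts in H9, 6 in DE and 8 in NE. Over the transition it had 0 in naive cells, 1 at day 1, 1 at day 3, 5 at day 5, 3 at day 7, 3 at day 10 and finally 1 at day 14. The chromosome 16 cluster had 3 in H9, 6 in DE and 5 in NE, and 4 in naive cells, 4 at day 1, 4 at day 3, 7 at day 5, 3 at day 7, 5 at day 10 and finally 7 at day 14. The share of all contacts within chromosomes that was called was 13.0% in H9, 16.2% in DE, 17.9% in NE, 10.0% in naive cells, 10.1% at day 1, 12.4% at day 3, 11.7% at day 5, 10.2% at day 7, 10.3% at day 10 and finally 11.2% at day 14.

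Set against those shares, 22.9% of the chromosome 5 contacts were called in H9 (10.4 to 40.1%), 17.1% in DE (6.56 to 33.6%) and again 22.9% in NE (10.4 to 40.1%). At day 14 the share was 2.86% (0.0723 to 14.9%). In naive cells it was 0 (upper bound 10%), and no contact of this cluster scored above 2.15 there. From high to low the order was H9 and NE, DE, day 5, day 7 and day 10, then day 1, day 3 and day 14, and naive last. Neighbours in this order had overlapping intervals. The intervals of H9 and of NE did not overlap that of naive cells, while each of these 10 intervals but that of naive cells held the share over all contacts in its condition. For naive cells the share over all contacts and the upper bound of the interval were both 10.0% after rounding. On chromosome 16 the share was 6.98% in H9 (1.46 to 19.1%), 14% in DE (5.3 to 27.9%), 11.6% in NE (3.89 to 25.1%), 16.3% at day 14 (6.81 to 30.7%) and 9.3% in naive cells (2.59 to 22.1%). All 10 intervals overlapped each other and held the share over all contacts, so no order of conditions was detectable in this cluster at the 1 kb margin. With a margin of 10 kb, 22 of 125 contacts were called at day 14 (17.6%, 11.4 to 25.4%), an interval above the 11.2% over all contacts. Naive cells then had 10 calls (8%, 3.9 to 14.2%), and these intervals of day 14 and naive cells overlapped.

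**Figure D1:**
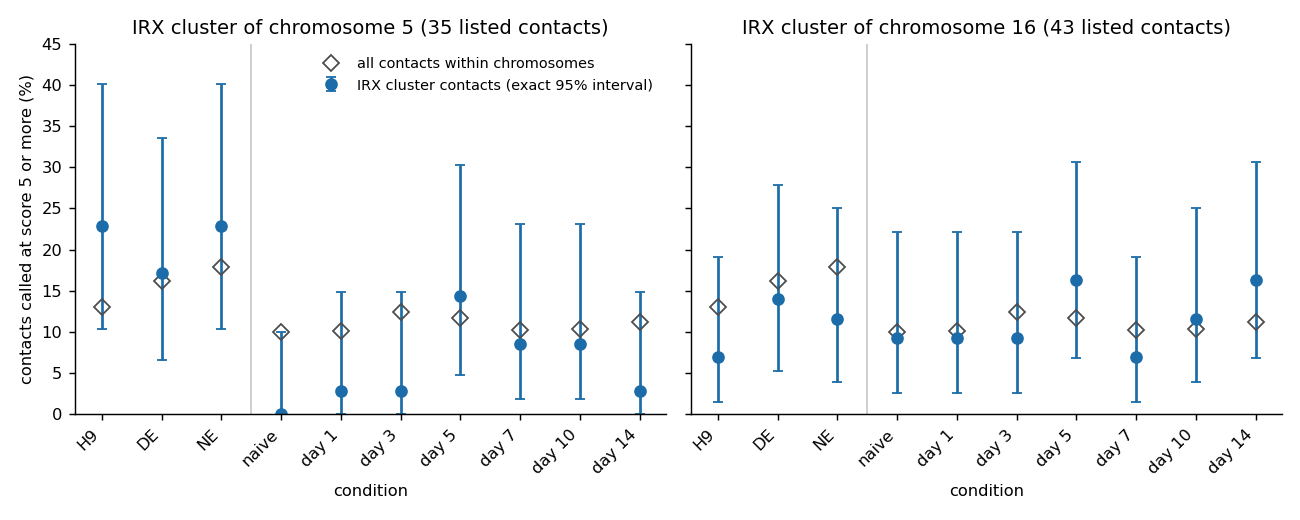
Share of the listed contacts called at a score of 5 or more (%, vertical axis) in each condition (horizontal axis), for the IRX cluster of chromosome 5 (35 contacts, left) and of chromosome 16 (43 contacts, right). Filled points are the cluster with exact 95% intervals and open diamonds are all contacts within chromosomes. The chromosome 5 share is 22.9% in H9 and in NE and 0 in naive cells, and the chromosome 16 share stays between 6.98% and 16.3%.

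Both clusters reached farther than most captured contacts. The median distance between bait and other end was 373 kb on chromosome 5 and 524 kb on chromosome 16, against 228 kb over all contacts within chromosomes. Distances over 500 kb made up 20% of the chromosome 5 contacts (7) and 51.2% of the chromosome 16 contacts (22), against 9.72% of all. Contacts that joined 2 baits made up 14.3% and 9.3% in that order of clusters, against 1.31% of all. The median of each contact's highest score was 6 on chromosome 5 and 5.54 on chromosome 16, against 5.75 over all. A score of 10 was reached by 2 chromosome 5 contacts (5.71%) and by no chromosome 16 contact, against 2.1% of all.

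Most of these contacts stayed inside the span of their own cluster. A contact was counted inside where both ends overlapped the span widened by 1 kb. The chromosome 5 genes span 1724 kb, and 27 of 35 contacts (77.1%) were inside. The chromosome 16 genes span 1047.5 kb, and 39 of 43 contacts (90.7%) were inside. In H9 all 8 calls of the chromosome 5 cluster were inside, against 3 of 6 in DE and 5 of 8 in NE. Calls of the bait chr5:3601534-3602340, in DE and NE, lie past the end of IRX1 and count as inside only with that widening. This contrast goes with the gene that was called. IRX2, in the middle of the span, had 6 calls in H9, and IRX1, at its edge, had 5 each in DE and NE. The gaps on both sides of IRX2 (848.456 and 844.155 kb) are about as long as its longest contact (854.4 kb). No share inside a span is given for other genes. Few contacts were called in more than 1 condition: 1 of 35 on chromosome 5 (2.86%) and 5 of 43 on chromosome 16 (11.6%), against 14.2% of all contacts. The chromosome 16 share was near that of all contacts. No contact of either cluster was called in 3 or more conditions, against 4.62% of all. With so few contacts these differences were not tested.

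IRX4 (gene ID 50805, chr5:1877413-1887179), a transcription factor of the ventricular heart muscle, had 5 listed contacts, all with IRX4 at the bait. It had 1 call each in H9, DE, NE, day 5 and day 14, each to a different interval 129.7 to 323.2 kb away, and no call in the other 5 conditions. The bait that holds the printed promoter (chr5:1884499-1888833) had 1 listed contact, to chr5:1751976-1757714, with 6.14 in NE, 4.16 at day 1, 2.44 at day 5 and at most 1.27 in the other 7 conditions. The highest score of IRX4 was 6.20 in H9, to chr5:2113735-2119248 in the noncoding gene LOC105374618. That contact scored 0 in DE, 1.28 in NE, 0 at day 14 and 1.47 in naive cells. No contact joined IRX4 to IRX2, 848.456 kb away, or to IRX1.

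IRX2 (gene ID 153572, chr5:2735635-2751677), which is expressed with IRX1 in the developing limb and lung, had 17 listed contacts. Its calls numbered 6 in H9, 1 in DE, 2 in NE, 0 in naive cells, 1 at day 1, 1 at day 3, 2 at day 5, 3 at day 7, 2 at day 10 and finally 0 at day 14. The 6 calls in H9, among them a pair of baits listed from both ends, all ran to a short stretch between IRX2 and IRX1. This stretch is a run of 14 baits over 21.78 kb, chr5:3100745-3122523, together with the interval that adjoins it, chr5:3122524-3127674. The run starts 349.1 kb after the end of IRX2, ends 473.3 kb before the start of IRX1 and overlaps no annotated gene. It was picked out after the scores were seen.

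The highest score of this set was between the bait chr5:3117257-3117595 in that run and chr5:2743847-2746894 inside IRX2, 372.055 kb apart. It scored 11.5 in H9, 0.992 at day 3 and 0 in the other 8 conditions. The bait chr5:3117961-3118460 reached the same IRX2 interval with 6.33 in H9, against 0 at day 14. The pair of baits chr5:3117257-3117595 and chr5:2738077-2739040 (in IRX2) was listed from both ends. It scored 6.95 and 5.38 in H9, 1.02 and 0.779 in DE, 1.28 and 1.15 at day 7, and 0 in NE, at day 14 and in naive cells. H9 alone was past 5 at each of these. The interval chr5:3122524-3127674, seen from the bait chr5:2738077-2739040, was the only chromosome 5 contact called in 2 conditions, with 5.89 in H9 and 6.15 at day 5, against 0.6 in DE, 0.570 in NE, 2.15 in naive cells, 1.00 at day 1, 0 at day 3, 2.29 at day 7, 2.15 at day 10 and finally 0.749 at day 14.

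With the gene widened to 20 kb on each side, IRX2 and the run of baits shared 12 listed contacts (11 pairs counted once, 337.9 to 383.2 kb). Of these, 6 were called in H9, 0 in DE and 1 in NE, against 1 each in naive cells, at day 5, day 7, day 10 and day 14 and 0 at day 1 and day 3. Each of the 12 was called in a single condition. With pairs counted once, H9 had 5 calls against 1 at day 14. Of all contacts within chromosomes, 13.0% were called in H9 and 11.2% at day 14. The counts were not tested against these shares. The NE call had a score of 8.11 between chr5:3116691-3116846 and chr5:2730911-2736288, with 1.29 in H9 and 1.01 in DE, against 2.78 at day 14. On the asinh scale that contact also had the largest increase on chromosome 5 at day 14 over naive cells, where it scored 0. The other IRX2 call in NE joined the bait chr5:2743510-2743846 to chr5:2197939-2203619, 542.899 kb away, with 9.77 in NE and 0 in the other 9 conditions. That bait had no score on any listed contact outside DE and NE.

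**Figure D2:**
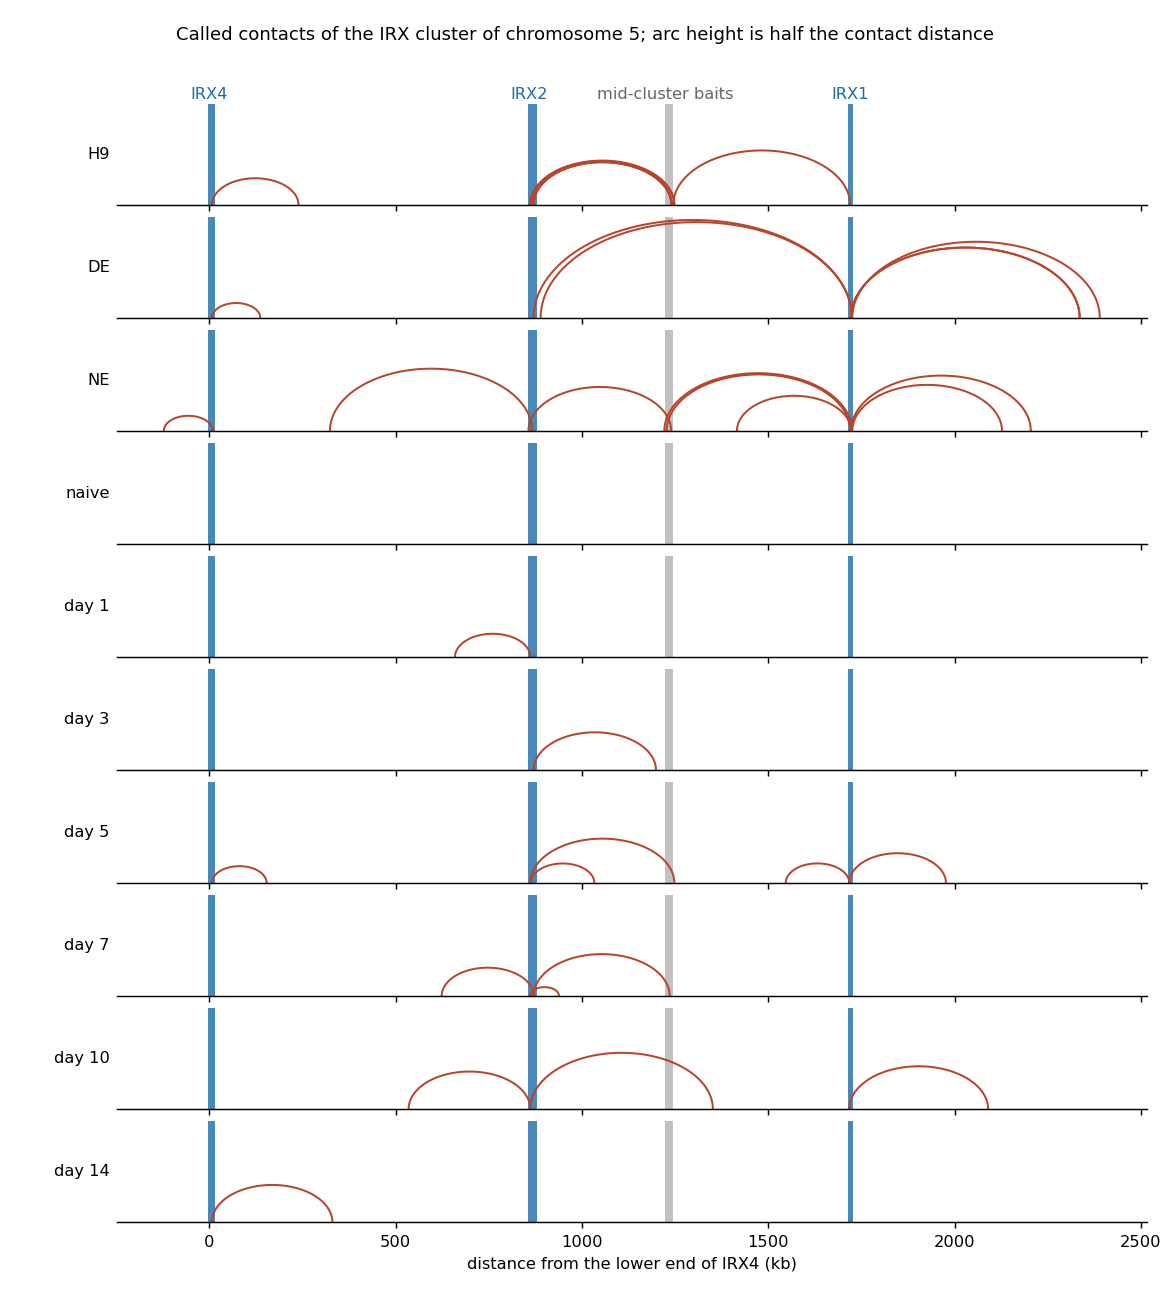
Called contacts of the chromosome 5 cluster in each condition, with distance from the lower end of IRX4 (kb) on the horizontal axis. Each arc is a contact with a score of 5 or more, blue bands mark the genes and the grey band the run of 14 baits. H9 shows a bundle of 6 arcs from IRX2 to that run or the interval beside it, and DE and NE have 5 calls each at IRX1. A pair of baits called from both ends gives a doubled arc at IRX2 in H9 and at IRX1 in DE. Naive cells show no arc.

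IRX1 (gene ID 79192, chr5:3595832-3601403), a factor of lung, limb and kidney development, had 14 listed contacts. It had 1 call in H9, 5 in DE and 5 in NE, against 0 in naive cells, at day 1, day 3, day 7 and day 14, 2 at day 5 and 1 at day 10. The highest score of both clusters was between the IRX1 bait chr5:3599428-3599613 and the bait chr5:4212774-4213640, 613.687 kb away and outside the cluster. From the IRX1 bait it scored 11.9 in DE and 0 in the other 9 conditions, and from the far bait it scored 5.07 in DE and 0 elsewhere. The IRX1 bait had no score on any listed contact outside DE and NE.

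The bait chr5:3601534-3602340, beside the end of IRX1, reached IRX2. It scored 5.30 in DE with the IRX2 bait chr5:2746895-2748243, 854.368 kb away, which was the only contact between the widened bodies of the 2 genes. It also scored 6.82 in DE with chr5:2763514-2768989, 835.685 kb away, which lies past the end of IRX2 and counts as IRX2 only with 20 kb added. Both were 0 in the other 9 conditions, but this bait had a score on any listed contact in only 3 conditions (DE, NE and day 3). The NE calls of IRX1 ran elsewhere. The highest was 8.26 between chr5:3602341-3603411 and chr5:4001827-4007431 (401.753 kb), with 2.47 in DE, against 0 at day 14. It scored 3.50 at day 5. DE and NE called no IRX1 contact in common.

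The interval with the printed IRX1 promoter, chr5:3595271-3599204, was reached from the run of baits in the middle of the cluster. From chr5:3104452-3104898 it scored 6.54 in NE, 3.10 at day 3, 0.844 in H9 and 0.696 in DE, and 0 at day 14 and in naive cells. From chr5:3121982-3122523 it scored 5.17 in H9, 0.578 in DE and 0 in NE, at day 14 and in naive cells. So the same promoter interval was called in NE from one bait and in H9 from another, 474.985 to 492.563 kb away. With 20 kb added to the gene, 6 contacts joined IRX1 to the run, with 1 call in H9, 0 in DE and 2 in NE, against 1 each at day 3, day 10 and day 14 and 0 elsewhere.

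Against day 14, the chromosome 5 cluster had 8 calls in H9 against 1, with 8 gained, 1 lost and none shared. It had 6 in DE against 1 and 8 in NE against 1, again with none shared. Of the calls of both conditions together, 88.9% fell in H9 (51.8 to 99.7%), 85.7% in DE (42.1 to 99.6%) and again 88.9% in NE (51.8 to 99.7%). Over all contacts these shares were 53.7%, 59.1% and 61.4% in the same order. Each of the 3 intervals held the share over all contacts. With pairs of baits counted once, the calls were 7 in H9, 5 in DE and 8 in NE, each against 1 at day 14. With a margin of 10 kb the contrast nearly vanished, to 11 calls in H9 against 9 (55% in H9), 11 in DE against 9 (55%) and 13 in NE against 9 (59.1%). Day 14 had 1 call against 0 in naive cells, or 9 against 5 with the wider margin. Beside these counts, 7 of the 15 baits on the chromosome 5 genes (46.7%) had no score on any listed contact outside DE and NE. Over all baits this share was 12%. Baits of this kind were listed only through calls in DE or NE, so their zeros do not measure bait recovery apart from the listing. Such baits gave 1 of the 6 DE calls and 3 of the 8 NE calls. The part of bait recovery in the DE and NE results was not tested. With only baits that had a score on listed contacts in both conditions, the counts were 3 in DE against 1 and 4 in NE against 1.

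IRX3 (gene ID 79191, chr16:54283304-54286787), a factor of neural tube patterning, the heart's conduction system and adipocytes, had 17 listed contacts. Its calls numbered 2 in H9, 2 in DE, 1 in NE, 2 in naive cells, 1 at day 1, 2 at day 3, 5 at day 5, 2 at day 7, 0 at day 10 and finally 2 at day 14. A single IRX3 bait, chr16:54283831-54284309, gave 11 of the 17 contacts. Partners lay at higher coordinates in 15 of 17, towards IRX5, and 13 of 17 were more than 500 kb away.

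IRX5 (gene ID 10265, chr16:54930865-54934485), which acts with IRX3 in heart and limb and is mutated in a human craniofacial syndrome, lies 644.078 kb beyond IRX3 and had 15 listed contacts. Its calls numbered 2 in H9, 4 in DE, 2 in NE, 0 in naive cells, 1 at day 1, 1 at day 3, 2 at day 5, 1 at day 7, 4 at day 10 and finally 2 at day 14. Partners lay at lower coordinates in 14 of 15, towards IRX3, and 13 of 15 were more than 500 kb away. For both genes most contacts thus ran across the gap between them.

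With 20 kb added to each gene, IRX3 and IRX5 shared 27 listed contacts from 11 baits (26 pairs counted once, 621.7 to 659.1 kb). Of these, 6 were called in H9, 3 in DE and 1 in NE. Over the transition 1 was called in naive cells, 0 at day 1, 7 at day 3, 5 at day 5, 3 at day 7, 4 at day 10 and finally 5 at day 14. The 7 calls at day 3 include a pair of baits listed from both ends. The highest score per condition was 7.88 in H9, 6.48 in DE, 5.70 in NE, 5.27 in naive cells, 3.84 at day 1, 8.31 at day 3, 10.3 at day 5, 7.85 at day 7, 10.1 at day 10 and finally 9.93 at day 14. Of all contacts within chromosomes, 13.0% were called in H9, 16.2% in DE, 17.9% in NE and 10.0% in naive cells. From day 1 to day 14 that share lay between 10.1% and 12.4%. The counts among the 27 contacts, which share baits, were not tested against these shares. Of the 27 contacts, 8 were called in 2 conditions and none in 3. At a score of 3 or more, 6 contacts passed at day 14 against 4 in naive cells, so the gap of 5 against 1 depends on the threshold.

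The contacts behind those counts used different fragments from one condition to the next. The highest score of the gene-body set was between the bait chr16:54927425-54927644, inside the noncoding gene CRNDE beside IRX5, and chr16:54284310-54288108 at IRX3, 641.325 kb apart. It scored 7.88 in H9 and 0 in DE and NE, against 0 at day 14. The earlier stages had 0.347 in naive cells, 0.434 at day 1, 2.30 at day 3, 4.31 at day 5, 2.25 at day 7 and again 0 at day 10. The IRX3 bait and chr16:54940444-54945807 (659.056 kb) scored 7.55 at day 5 and at most 0.905 in the other 9 conditions. The IRX5 bait chr16:54929467-54930011 and chr16:54292461-54298054 (634.481 kb) scored 7.30 at day 10, with 4.80 in H9, 1.99 in DE and 0.278 in NE, and 0 at the other 6 stages.

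Of the 4 contacts that joined the bodies of IRX3 and IRX5, each widened by 1 kb, 2 were called in 2 conditions. The IRX3 bait and chr16:54933438-54936008 at IRX5 (650.653 kb) scored 6.48 in DE, 0.598 in H9 and 0.743 in NE, against 3.11 at day 14. It scored 0 in naive cells, 3.00 at day 5 and 5.49 at day 7. The IRX5 bait chr16:54929467-54930011 and chr16:54284310-54288108 (643.53 kb) scored 5.34 in DE, 3.22 in NE and 0.740 in H9, against 5.22 at day 14. It scored 2.96 in naive cells. It was the only contact of either cluster called in both DE and day 14. The pair of the IRX3 bait and the bait chr16:54936009-54936805 past IRX5, listed from both ends, was at 0 in both listings in H9, in DE and at day 14. It scored 3.44 and 3.59 in naive cells and 5.54 and 6.57 at day 3.

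Some partner intervals were reached from several baits. The IRX3 interval chr16:54284310-54288108 was called from 3 baits near IRX5, in H9, in DE and at day 14. Among these baits, chr16:54939847-54940443 scored 4.01 in H9 and 0 in DE, against 6.40 at day 14. The IRX5 interval chr16:54933438-54936008 was called from 2 baits at and beside IRX3, in H9, in DE, at day 7 and at day 14. From the bait chr16:54289974-54290282 it scored 7.11 in H9, 3.88 in DE and 1.06 in NE, against 5.83 at day 14. This was the single contact called in both H9 and day 14.

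**Figure D3:**
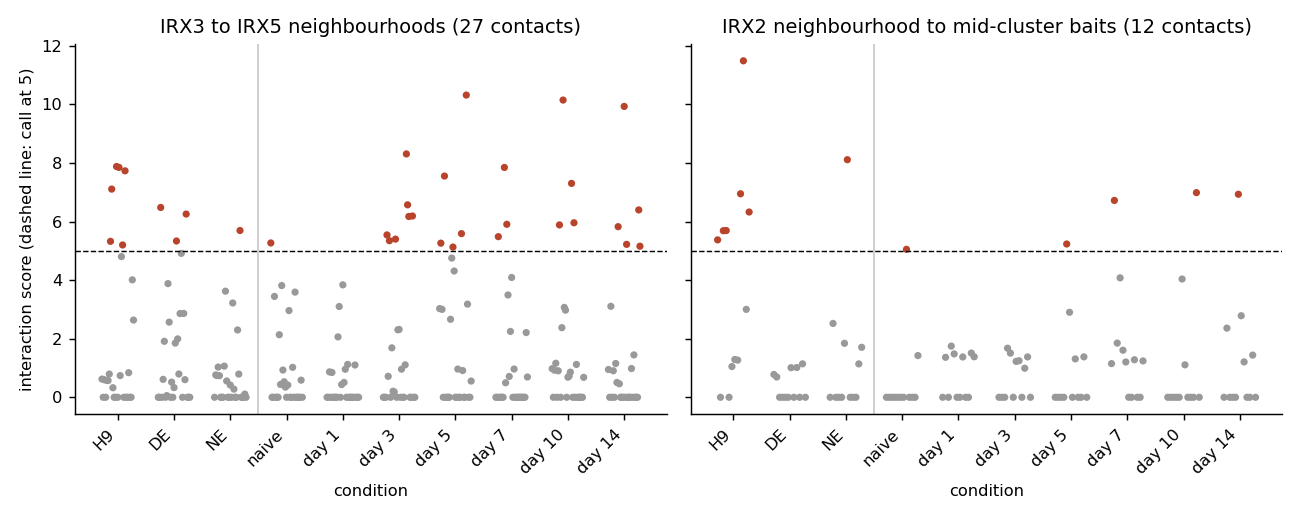
Interaction score (vertical axis, call at the dashed line at 5) in each condition (horizontal axis) for the 27 contacts between the IRX3 and IRX5 neighbourhoods (left) and the 12 contacts between the IRX2 neighbourhood and the run of baits in the middle of the chromosome 5 cluster (right). Each point is a contact, red where called. On the left, calls are spread over 9 of the 10 conditions, with up to 7 at day 3. On the right, 6 of the calls are in H9, the highest at 11.5. The counts at day 3 on the left and in H9 on the right each include a pair of baits listed from both ends.

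IRX6 (gene ID 79190, chr16:55324203-55330756), known from bipolar neurons of the mouse retina, had 15 listed contacts. Its calls numbered 0 in H9, 2 in DE, 2 in NE, 2 in naive cells, 2 at day 1, 1 at day 3, day 5, day 7 and day 10, and 4 at day 14. Its partners lay 92.42 to 388.8 kb away, nearer than those of IRX3 and IRX5, and at lower coordinates in 14 of 15. No contact joined IRX6 to IRX3. The contact between the bait chr16:54936009-54936805 past IRX5 and chr16:55322735-55327708 at IRX6 (388.815 kb) scored 5.76 at day 14 and 0 in the other 9 conditions, and on the asinh scale had the largest increase on chromosome 16 at day 14 over naive cells. The contact of the bait chr16:55330160-55331104 with chr16:54951249-54956719 scored 1.00 at day 14, against 6.71 in naive cells, and 4.80 at day 5. With 20 kb added to both genes, 4 contacts joined IRX5 and IRX6, with 0 calls in H9, 2 in DE and 0 in NE, and 1 each at day 14 and in naive cells. Beyond the cluster, the bait chr16:55328946-55329579 reached SLC6A2, the noradrenaline transporter gene, 347.1 kb away, with 0 in H9, 0.647 in DE and 0.564 in NE, against 5.34 at day 14. It scored 0 in naive cells.

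On chromosome 16 day 14 had 7 calls against 4 in naive cells, with none shared, and 63.6% of the calls of both fell at day 14 (30.8 to 89.1%), against 52.9% over all contacts. H9 had 3 calls against 7 at day 14, with 1 shared, which puts 30% of the calls in H9 (6.67 to 65.2%), against 53.7% over all. DE had 6 against 7, with 1 shared (46.2% in DE, 19.2 to 74.9%), against 59.1% over all. NE had 5 against 7, with none shared (41.7% in NE, 15.2 to 72.3%), against 61.4% over all. All 4 intervals held both an even split and the share over all contacts, so none of these differences was detectable with so few calls at the 1 kb margin. Day 14 and naive cells had 4 calls each when IRX3, IRX5 and IRX6 were counted at the bait only. For DE and NE the direction then turned, with 5 calls against 4 in each. With a margin of 10 kb, day 14 had 22 calls against 10 in naive cells (68.8% at day 14, 50 to 83.9%). That interval held the 52.9% over all contacts. Of the 8 baits on these genes, 3 (37.5%) had no score on any listed contact outside DE and NE. They gave 2 of the 6 DE calls and 0 of the 5 NE calls.

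**Figure D4:**
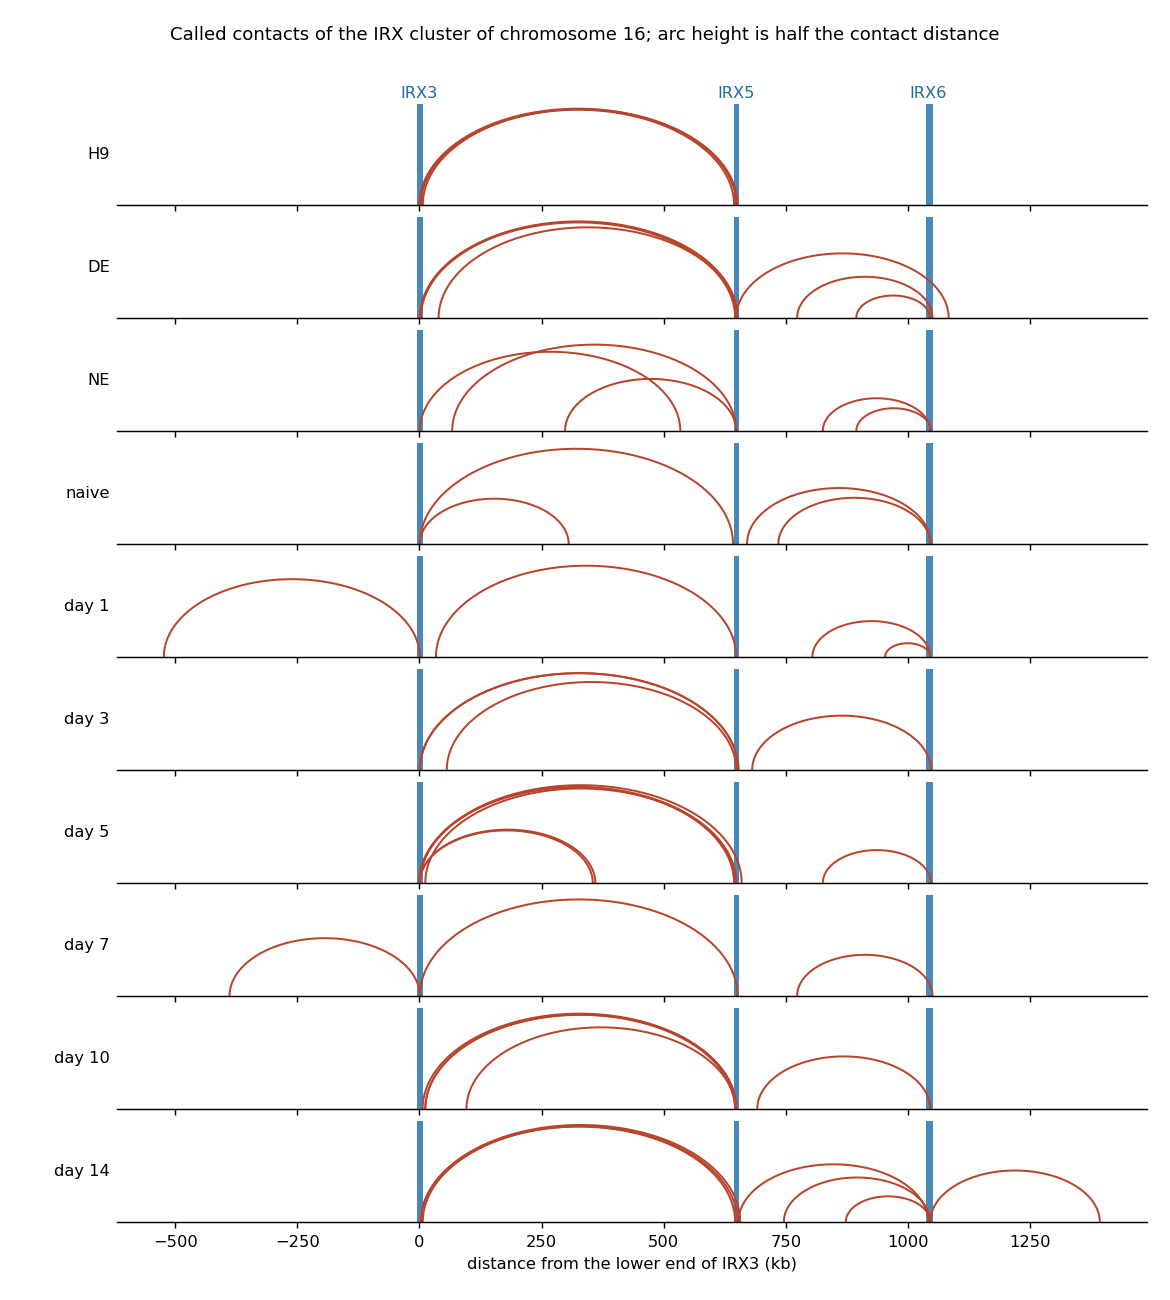
Called contacts of the chromosome 16 cluster in each condition, with distance from the lower end of IRX3 (kb) on the horizontal axis. Each arc is a contact with a score of 5 or more and blue bands mark the genes. Arcs between the IRX3 and IRX5 regions (20 kb added to each gene) are 634.481 to 659.056 kb long. They are drawn in every condition but NE and day 1, mostly between different fragments. No arc joins IRX3 to IRX6.

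Few genes outside the clusters were reached. FTO, an RNA demethylase gene whose introns are known to hold enhancers that contact IRX3, was reached by 2 contacts of the IRX3 bait. The interval chr16:53757310-53762509 (524.16 kb) scored 0 in H9, 1.03 in DE and 1.14 in NE, and 5.42 at day 1, 1.33 at day 10 and 0 at the other 5 stages. The interval chr16:53891930-53897091 (389.559 kb) scored 1.36 in NE, 5.58 at day 7 and 0 in the other 8 conditions. Neither was called in H9, DE, NE, naive cells or day 14. CRNDE, a long noncoding RNA gene beside IRX5, widened by 1 kb, lay at the partner end of 4 contacts with 5 calls, each of them a contact with IRX3. Among these, the contact of the IRX5 bait chr16:54929467-54930011, with 2 of the calls, lies past the end of CRNDE itself. Of 18 flanking genes looked for at the partner end, 9 per cluster, FTO and CRNDE were the only ones reached. The 9 on chromosome 5 had 0 contacts.

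By gene, 3 of the 6 IRX genes had more calls at day 14 than in naive cells, 0 fewer and 3 the same, beside 29.0% of 14272 linked protein-coding genes with more. In H9 over day 14, 2 had more, 1 fewer and 3 the same, beside 31.4% of genes with more. In DE over day 14, 3 had more, 1 fewer and 2 the same, beside 37.2%. In NE over day 14, 2 had more, 2 fewer and 2 the same, beside 41.6%. The share with more was 50% of the IRX genes for day 14 over naive and for DE over day 14 and 33.3% in the other comparisons, and with 6 genes that share contacts it cannot be set apart from the background. IRX1 was the IRX gene with 5 more calls in DE and in NE than at day 14, where it had 0, and IRX2 had 6 more in H9. The IRX1 baits chr5:3599428-3599613 and chr5:3601534-3602340 gave part of these calls in DE and in NE. Neither had a score on any listed contact at day 14. The IRX1 count in DE and the IRX2 count in H9 each include a pair of baits listed from both ends.

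**Figure D5:**
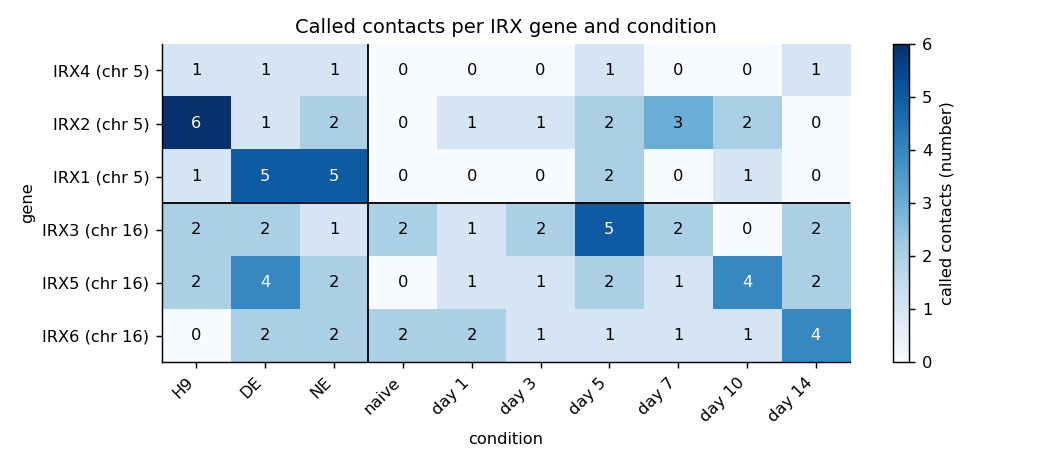
Number of contacts called at a score of 5 or more for each IRX gene (rows) in each condition (columns). The highest counts are 6 for IRX2 in H9, and 5 for IRX1 in DE, IRX1 in NE and IRX3 at day 5. A pair of baits listed from both ends is counted from each, as for IRX2 in H9 and IRX1 in DE.

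Of the 12 other TALE genes, 10 had contacts within chromosomes and PBX2 and TGIF2 had none. At day 14, 3 had more calls than in naive cells, 1 fewer and 6 the same. In H9 over day 14, 3 had more, 2 fewer and 5 the same, in DE 6, 2 and 2, and in NE 6, 3 and 1. The counts were carried by few genes: MEIS2, a cofactor of HOX proteins, had 407 calls summed over the 10 conditions, PKNOX2 327 and MEIS1 179, against 14 to 19 for IRX1, IRX2, IRX3, IRX5 and IRX6 and 5 for IRX4. MEIS2 had 48 calls in H9, 50 in DE, 39 in NE, 48 at day 14 and 22 in naive cells. MEIS1 had 6 in H9, 15 in DE and 12 in NE, against 23 at day 14 and 8 in naive cells. Gene length and number of baits differ between these genes, so the counts are not levels per length.

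The genes with the most similar pattern of calls were found by Pearson's r over the 10 conditions, among genes more than 3 Mb away or on another chromosome with at least 30 calls in all. For the chromosome 5 cluster, out of 2227 genes, they were NFIX (0.921), COL4A2 (0.901), BACH2 (0.897), STX8 (0.894) and PDZD2 (0.882). NFIX, a nuclear factor I gene, had 35 calls in H9, 36 in DE, 44 in NE, 16 at day 14 and 13 in naive cells. For the chromosome 16 cluster, out of 2221 genes, they were GATA2 (0.885), SOX5 (0.877), EML2 (0.861), ACOT1 (0.861) and LURAP1L (0.833). GATA2, a blood and neural transcription factor gene, had 2 calls in H9, 9 in DE, 6 in NE, 10 at day 14 and 3 in naive cells. These values are the top of many and describe likeness only. The 10 points of each gene come from the same libraries and share their depth and bait recovery.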

How the data were processed

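The 20 libraries of 10 conditions were deposited as a single matrix with 1 score per condition. The values are CHiCAGO interaction scores, which the authors computed with both libraries of a condition pooled, per the labels. Coordinates are on GRCh38, per the submitters' processing notes. The aligner, caller version and binning are not given in the sources used here. Other ends had a median length of 5.26 kb and baits of 617 bp. The deposited distance column was used as another measure, in bp, and 0 score columns were unmatched.

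Contacts with an end on an IRX gene were counted as called at a score of 5 or more. Gene positions came from RefSeq (GRCh38.p14). The members, gene lists and comparisons were chosen with earlier results of these data known. Named were the 6 genes and, per cluster, partner genes, the 3 highest-scoring contacts, the 2 largest increases and decreases of asinh(score) per comparison, and the 5 most similar genes, of which the text gives a part. The 20 kb neighbourhoods, the run of baits and contacts given for these or for shared fragments were chosen after the scores were seen. Counting was tested on simulated contacts. Alternatives were other score thresholds, score scalings, gene margins, bait or other end only, and pairs counted once. Python 3.11.15, pandas 2.3.3, numpy 2.4.6, scipy 1.17.1 and matplotlib 3.10.9 were used.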

Additional observations from a re-analysis of the deposited data

Results flagged for a closer look

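Contacts between IRX5 and IRX6, with 20 kb added to each gene, differed from day 14 in opposite directions in the 2 differentiated cell types, by 1 call in DE and by -1 call in NE. Contacts between IRX1 and the run of baits in the middle of the chromosome 5 cluster did so the other way, by -1 call in DE and by 1 call in NE. Each rests on a single pooled value per condition, and the differences were not tested.

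Contacts of the IRX genes with other chromosomes were not part of the comparisons. On chromosome 5 they numbered 158, with 6 calls in H9, 48 in DE and 47 in NE, against 9 at day 14 and 9 in naive cells. On chromosome 16 they numbered 122, with 14 calls in H9, 33 in DE and 29 in NE, against 10 at day 14 and 7 in naive cells. In percent, 30.4% of the chromosome 5 contacts were called in DE and 29.7% in NE, against 5.7% at day 14, and 27% of the chromosome 16 contacts in DE and 23.8% in NE, against 8.2% at day 14. In H9 the share was 3.8% on chromosome 5 and 11.5% on chromosome 16. Over all 583835 contacts between chromosomes the share was 6.59% in H9, 32.1% in DE and 26.6% in NE, against 5.38% at day 14 and 5.1% in naive cells. The DE and NE shares of both clusters were thus near those over all contacts between chromosomes. No difference was tested. Baits with no score on any listed contact were also fewest in DE and NE. They made up 1.98% and 3.7% of all baits, against 23.3% at day 14. Their part in the counts was not tested.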

How the results depend on the processing

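No paired analysis was possible because each condition has 1 pooled column. For the same reason leaving out a replicate could not be run. Each value is the percent of both conditions' calls that fell in the first, recomputed under 9 other settings and some chosen after seeing the data. Of 128 values, 108 kept their direction, 3 became even, 14 belong to comparisons that were even at the start and 3 reversed, and 17 moved out of the counting interval. The counting intervals are wide. A gene margin of 10 kb stayed within them but took the chromosome 5 shares to 55% for H9 (11 against 9), 55% for DE (11 against 9), 59.1% for NE (13 against 9) and 64.3% for day 14 over naive (9 against 5). On chromosome 16 that margin gave 68.8% for day 14 over naive (22 against 10). Against day 14 it gave 40.5% for H9, 48.8% for DE and 43.6% for NE. The values that became even were chromosome 16, day 14 over naive, counting baits only (4 against 4), and IRX3 to IRX5, H9 over day 14, with top contacts and at 10 kb (5 against 5). At a score of 3, IRX3 to IRX5 had 6 against 4 for day 14 over naive and 3 against 6 for NE over day 14. On chromosome 5, H9 over day 14 moved to 100% at a score of 10 (1 call against 0), with the 18272 top contacts per condition (7 against 0) and counting other ends only (4 against 0). DE over day 14 moved to 100% under the same settings (1, 3 and 2 against 0), and NE over day 14 under the last of them (2 against 0) and with top contacts (5 against 0). On chromosome 16, day 14 over naive moved to 100% counting other ends only (4 against 0). NE over day 14 moved to 12.5% with quantile-normalised scores, to 14.3% with top contacts and to 0 counting other ends only. Counting baits only, DE and NE over day 14 both reversed to 55.6%. Between IRX3 and IRX5, NE over day 14 moved to 0 with top contacts and H9 over day 14 reversed to 46.2% at 50 kb. Between IRX2 and the run of baits, H9 over day 14 moved to 100% at a score of 10 and at 10 kb. At 10 kb, NE over day 14 moved to 100% and day 14 over naive to 0. All rest on few calls, and the cause was not tested. Settings that left no call in either condition gave no value. Read depth is unknown, so what it limits could not be given.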
